A study of Mus musculus with 6 samples.

Results

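The genes described here handle cholesterol efflux, the liver X receptors (LXR) and oxysterols in the kidney of db/db mice with and without atorvastatin. They are 10 genes chosen by symbol, with no measured value in the rule: Nr1h3 (NCBI Gene 22259), Nr1h2 (22260), Abca1 (11303), Abcg1 (11307), Scarb1 (20778), Ch25h (12642), Cyp27a1 (104086), Soat1 (20652), Nceh1 (320024) and Lipa (16889). The choice was made with earlier results of these data known. All 10 have a row among the 17684 genes of the deposited table, and all 10 passed the filter on low counts that left 13679 genes for testing. Cells take up cholesterol in lipoproteins, free it from its esters in lysosomes and either store it as ester droplets or pass it out to lipoprotein particles. When cholesterol builds up, some of it is oxidised to oxysterols, which bind the LXR and turn on efflux transporters and other target genes. In the kidney these steps take place in tubule cells as well as in resident and incoming macrophages, which are known for strong responses to LXR.

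RNA was sequenced from kidneys of db/db mice in 6 libraries. The strain is C57 BLKS/L in the labels and C57BLKS/J in the study's methods, a difference that was not resolved. These mice lack a working leptin receptor and become obese and diabetic. The Db group (3 libraries) received saline, and the Db + Ato10 group (3 libraries) received atorvastatin at 10 mg/kg per day, both for 40 weeks up to an age of 50 weeks. Only mice that lived to the end of dosing could be sampled, and the sources used here do not say which region of the kidney was taken. One treatment field of the labels names atorvastatin for all 6 libraries. Another field separates saline from atorvastatin, and it was the one used. The labels do not say that each library came from a separate animal, so the p-values below measure only the spread between these libraries, which may in part be technical.

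Between 11381678 and 14667909 counts were assigned to genes in each library, so that 3 counts, used as the floor, correspond to 0.195 to 0.260 CPM. Floors and intervals cover counting error or the spread between these libraries only. Several libraries stood apart. Db replicate 1 had 2 counts over 4 Y-linked genes, whereas the other 5 libraries had between 1419 and 2116, although the study's methods name males only. The fold changes of the members and the counts below are therefore also given without it where they changed. On the first principal component, which held 71.1% of the variance, the Db libraries lay at -55.4, -26.9 and -52.0 and the Db + Ato10 libraries at 107, 46.1 and -18.8. Db + Ato10 replicate 3 thus lay closer to the Db libraries than to its own group, and results that depend on it are also given without it. The tissue label fitted the markers: all 10 proximal tubule markers and all 6 markers of the distal nephron and podocytes passed the count filter, with Kap (mean 2247 FPKM) and Umod (1313 FPKM) the most abundant of their own lists. Kap owed its place to Db replicate 1, and without that library Pck1 (1720.1 FPKM) was above Kap (1682 FPKM). FPKM (fragments per kilobase of transcript, scaled to library size) are used below wherever genes are compared with each other. Differences between libraries are given in CPM, counts scaled to a common library size after scaling the libraries by the trimmed mean of M values (TMM).

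None of the 10 members passed the main test. In edgeR's quasi-likelihood test, where a call needed more than a 1.5-fold difference together with an adjusted p (Benjamini-Hochberg) below 0.05, 0 members were called, as were 0 of all 13679 genes (0%), and the smallest adjusted p of any gene was 0.239. At an unadjusted p below 0.05, 2 members were higher in the Db + Ato10 group (Ch25h and Soat1; 11.2% of all genes were) and 1 was lower (Lipa; 5.71% of all genes). Every Db + Ato10 library lay above every Db library for 3 members (Ch25h, Scarb1 and Soat1; 11.8% of all genes), and every one lay below for 2 (Nr1h3 and Lipa; 11.4%). The groups overlapped for the other 5. DESeq2, under the same thresholds, called 1 member higher (Ch25h; 5.17% of all genes) and 0 lower (1.29%). With only 10 members, each of these counts lay within 2 genes of what the share of all genes would give, and none is read as particular to them. The median log2 fold change was 0.47 over the members, with 6 above 0 and 4 below, and -0.0063 over all genes. The members' median was smaller in other fits, at 0.29 with limma-voom, 0.27 with the replicate block and 0.19 with limma on log2(TPM + 1). Without Db + Ato10 replicate 1 it was 0.15. In whole kidney RNA, fewer cells of a type and less RNA per cell cannot be told apart, and this holds for every difference below.

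The libraries behind these counts can be named. Without Db replicate 1, the library nearly free of Y-linked counts, edgeR again called 0 members. Ch25h and Soat1 were the 2 members higher at an unadjusted p below 0.05 (5.16% of all genes). There 0 members were lower, so Lipa dropped out. The log2 fold changes were then -0.39 for Nr1h3, 0.24 for Nr1h2, 0.85 for Abca1, 0.73 for Abcg1, 0.78 for Scarb1, 1.71 for Ch25h, -0.49 for Cyp27a1, 1.25 for Soat1, 0.068 for Nceh1 and -0.60 for Lipa. All but that of Nceh1 had the same sign as with all 6 libraries, and the smallest adjusted p of a member was 0.588. Without Db + Ato10 replicate 3, edgeR called 1106 genes (8.18% of those tested), and 2 of them were members, Soat1 and Cyp27a1. In that setting 4 members were higher (16.8% of all genes) and 3 lower (13.1%) at an unadjusted p below 0.05. The count of members higher fell to 1 without Db replicate 2 (8.58% of all genes) and to 1 without Db replicate 3 (5.23%). The count of members lower was 0 without Db replicate 1 (2.52% of all genes), Db replicate 3 (2.97%), Db + Ato10 replicate 1 (4.71%) or Db + Ato10 replicate 2 (3.03%). The shares of all genes were lower in these fits as well. DESeq2 was repeated with each library left out, an alternative added after the data had been seen. It called 5 members without Db + Ato10 replicate 3 (Soat1, Ch25h, Cyp27a1, Abca1 and Lipa), where it called 19.3% of all genes (2614). With Db + Ato10 replicate 2 left out it called 1 member (Ch25h) and 2.77% of all genes (372). It called 0 members when any of the other 4 libraries was left out, and between 195 and 623 genes of all. Over all of these settings and the other alternatives, the adjusted p ran from 9.58e-05 to 0.588 for Soat1 and from 1.34e-05 to 0.886 for Cyp27a1, with the lowest value in both cases from DESeq2 without Db + Ato10 replicate 3.

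**Figure D1:**
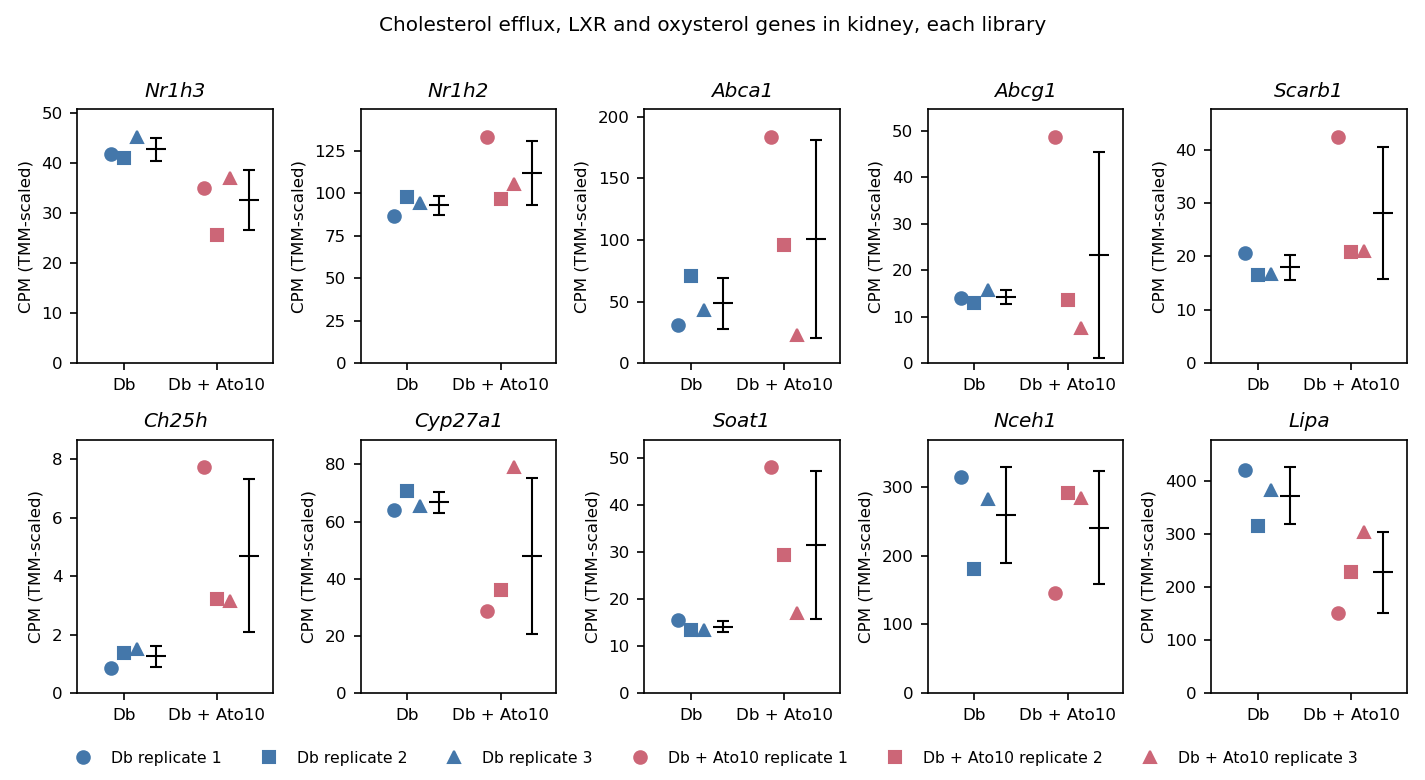
Level of each of the 10 members in every library, in TMM-scaled CPM. Bars beside the points show the mean and SD of the 3 libraries of each group, and the groups are apart for Nr1h3, Scarb1, Ch25h, Soat1 and Lipa.

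**Figure D2:**
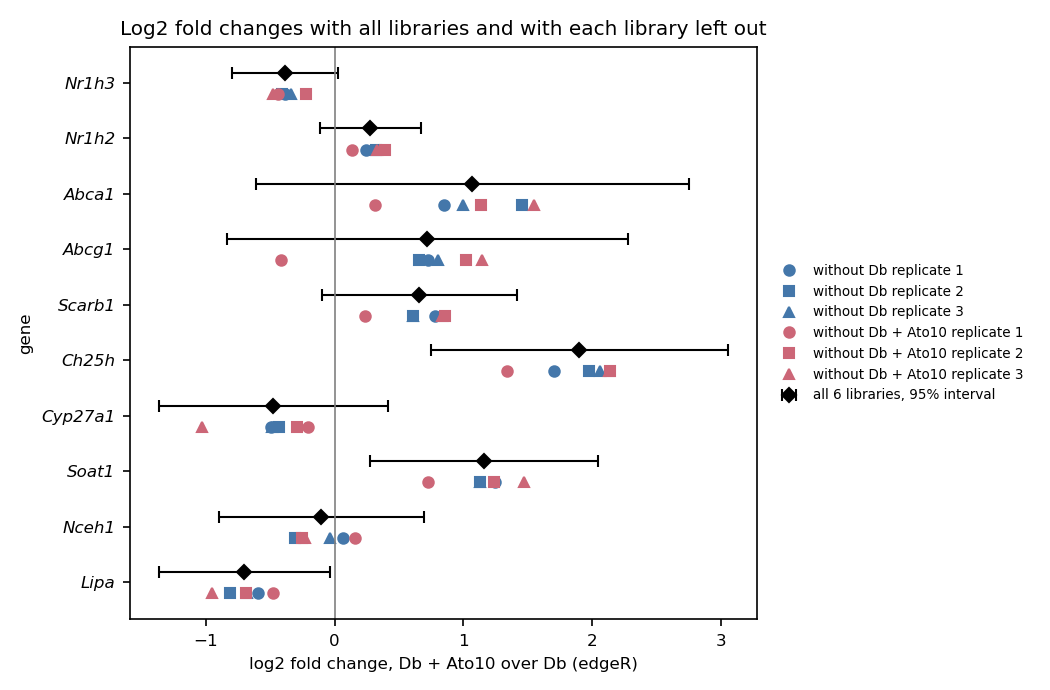
Log2 fold change of each member between the Db + Ato10 and Db groups from edgeR, with its 95% confidence interval, and the same value with each library left out in turn. Abcg1 and Nceh1 cross 0 when single libraries are left out.

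Compared per length of transcript, the members covered a wide range of levels. In the Db group Lipa was highest, at 131 ± 15.8 FPKM (mean ± SD, n = 3 libraries), followed by Nceh1 at 59.0 ± 15.01 and Nr1h2 at 49.6 ± 4.34 FPKM. Cyp27a1 (36.7 ± 2.88), Nr1h3 (26.2 ± 1.62) and Scarb1 (7.61 ± 0.734 FPKM) came next. Abca1 (4.80 ± 2.15), Soat1 (3.03 ± 0.177), Abcg1 (2.49 ± 0.259) and Ch25h (1.05 ± 0.308 FPKM) closed the order. Among neighbours, Nceh1 and Nr1h2 differed by less than the SD of Nceh1, and Abca1 and Soat1 by less than the SD of Abca1. The order was the same without Db replicate 1, with Nceh1 at 53.5 and Nr1h2 at 52.0 FPKM. Transcripts of the enzymes that release cholesterol from its esters were therefore far more abundant than those of the transporters and of the oxysterol enzyme Ch25h. The Db + Ato10 group gave nearly the same order, from Lipa at 81.2 FPKM through Nr1h2 (61.1), Nceh1 (55.5), Cyp27a1 (26.4), Nr1h3 (20.2), Scarb1 (12.3), Abca1 (10.3), Soat1 (6.99) and Abcg1 (4.26) to Ch25h at 4.02 FPKM. Here the large SDs joined more neighbours, since Abca1 had an SD of 8.52 FPKM and Abcg1 one of 4.20 FPKM.

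Spread between libraries was unequal between the groups. In the Db group the coefficient of variation of CPM was lowest for Nr1h3 (5.26%), Cyp27a1 (5.40%) and Nr1h2 (6.23%) and highest for Abca1 (42.1%), Ch25h (27.4%) and Nceh1 (27.1%). In the Db + Ato10 group it ran from 17.0% for Nr1h2 and 18.6% for Nr1h3 to 79.8% for Abca1 and 95.5% for Abcg1. With all libraries, every member varied more between the atorvastatin libraries than between the saline libraries. The share of all genes that did so is not given here, so this is not read as particular to the members. It rested in part on Db + Ato10 replicate 1. Replicates 2 and 3 of that group were close for Scarb1 (20.8 and 21.1 CPM), Nceh1 (291 and 284 CPM) and Ch25h (3.24 and 3.15 CPM). Summed over the 10 members, CPM were 1009, 819 and 961 in Db replicates 1 to 3 and 826, 841 and 882 in Db + Ato10 replicates 1 to 3, a sum in which Lipa and Nceh1 weighed most.

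The LXR themselves showed small differences. Nr1h3 encodes LXR alpha, the form that is abundant in liver, kidney and macrophages. It had 41.9, 41.1 and 45.3 CPM in Db replicates 1 to 3 and 35.0, 25.7 and 37.1 CPM in Db + Ato10 replicates 1 to 3. All 3 treated libraries were below all 3 saline libraries, with replicate 2 the lowest. The log2 fold change was -0.38 (SE 0.17, 95% interval -0.80 to 0.03, edgeR adjusted p = 0.316), and the exact permutation test gave p = 0.1, the smallest value possible with 3 libraries against 3. Without Db + Ato10 replicate 2 the log2 fold change of Nr1h3 shrank to -0.22. Over the 6 libraries Nr1h3 had an r of -0.92 with the median of the other LXR targets described below. With the median of the distal nephron and podocyte markers r was 0.91, and with that of the endothelial markers 0.87. It was 0.80 with the other oxysterol genes and -0.78 with the urothelial and squamous markers. The medians of the endothelial and of the distal nephron and podocyte markers were also lowest in Db + Ato10 replicate 2. The part of any of these cells in the difference of Nr1h3 was not tested.

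Nr1h2 encodes LXR beta, which is present in most cell types. Its levels were 86.4, 97.7 and 94.2 CPM in the Db replicates and 133, 96.8 and 106 CPM in the Db + Ato10 replicates. Only Db + Ato10 replicate 1 stood clearly above the rest, and replicate 2 lay within the Db range. On the log2 scale the fold change was 0.28 (SE 0.16, 95% interval -0.12 to 0.67, edgeR adjusted p = 0.405). It was 0.13 when Db + Ato10 replicate 1 was left out. The ratio of the receptors was chosen after their values had been seen and is a description with no test. In FPKM, Nr1h2 over Nr1h3 was 1.80, 2.06 and 1.81 in the Db libraries and 3.37, 3.34 and 2.47 in the Db + Ato10 libraries. The ratio was higher in each treated library, including Db + Ato10 replicate 3.

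Among the efflux transporters, the largest differences rested on few libraries. Abca1 encodes the transporter that passes cholesterol and phospholipid to lipid-poor apolipoprotein A-I, and it is a classic LXR target. It had 31.0, 70.9 and 43.4 CPM in Db replicates 1 to 3 and 184, 95.9 and 23.1 CPM in Db + Ato10 replicates 1 to 3. Replicates 1 and 2 of the treated group lay above every Db library, but replicate 3 lay below every one of them. This gave a log2 fold change of 1.07 (SE 0.70, 95% interval -0.61 to 2.76, edgeR adjusted p = 0.440). It was 0.31 when Db + Ato10 replicate 1 was left out. Leaving out replicate 3 of that group instead gave 1.55, with an edgeR adjusted p of 0.0761. DESeq2 called Abca1 in that setting (adjusted p = 0.00767), the lowest adjusted p of the settings tried, which reached 0.900 for DESeq2 with treated replicate 1 left out.

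Abcg1 encodes a transporter that moves cholesterol towards mature high-density lipoprotein (HDL), and it too is an LXR target. Its levels were 14.1, 12.9 and 15.8 CPM in the Db libraries and 48.7, 13.5 and 7.64 CPM in the Db + Ato10 libraries. The treated libraries spanned the Db range on both sides, with only replicate 1 high. The log2 fold change of 0.72 (SE 0.65, 95% interval -0.84 to 2.28, edgeR adjusted p = 0.557) turned to -0.42 when Db + Ato10 replicate 1 was left out, so its direction depended on that library. Across the 6 libraries Abcg1 followed Abca1 (Pearson r of log2 CPM 0.819, n = 6 libraries that share the same groups).

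Scarb1 encodes the HDL receptor SR-BI, which exchanges cholesterol with HDL in both directions. It had 20.6, 16.5 and 16.7 CPM in the Db libraries and 42.5, 20.8 and 21.1 CPM in the Db + Ato10 libraries. Every treated library was above every saline library, but replicates 2 and 3 only just exceeded Db replicate 1. For Scarb1 the log2 fold change was 0.66 (SE 0.32, 95% interval -0.10 to 1.42, edgeR adjusted p = 0.334; exact permutation p = 0.1), and 0.23 without Db + Ato10 replicate 1.

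The clearest separation among the members was that of Ch25h. This gene encodes cholesterol 25-hydroxylase, which makes 25-hydroxycholesterol, an LXR ligand, and which interferon and other inflammatory signals induce in macrophages. Its counts were low, at 11, 16 and 19 in the Db libraries and 119, 48 and 40 in the Db + Ato10 libraries, or 0.874, 1.39 and 1.53 CPM against 7.74, 3.24 and 3.15 CPM. Even Db + Ato10 replicate 3 was above every Db library, and replicate 1 was the highest. The log2 fold change was 1.90 (SE 0.48, 95% interval 0.75 to 3.06), with an edgeR adjusted p of 0.239 and an exact permutation p of 0.1. DESeq2 called the gene (log2 fold change 1.92, adjusted p = 0.0155). With single libraries left out of the edgeR fit, the log2 fold change of Ch25h stayed between 1.34 (Db + Ato10 replicate 1 left out) and 2.14 (Db + Ato10 replicate 2 left out). It was 1.71 without Db replicate 1. Leaving out any library except Db + Ato10 replicate 2 or 3 ended the DESeq2 call.

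Cyp27a1 encodes sterol 27-hydroxylase, the mitochondrial enzyme that makes 27-hydroxycholesterol. It had 64.0, 70.9 and 65.5 CPM in the Db libraries and 28.7, 36.1 and 79.1 CPM in the Db + Ato10 libraries. The saline libraries were close together, treated replicates 1 and 2 were low, and treated replicate 3 was the highest of all. The log2 fold change was -0.47 (SE 0.37, 95% interval -1.36 to 0.41, edgeR adjusted p = 0.502). Without Db + Ato10 replicate 3 it was -1.03 and the gene passed the test (edgeR adjusted p = 0.0294), whereas leaving out the other treated libraries gave -0.21 (replicate 1) and -0.29 (replicate 2). The oxysterol enzymes Ch25h and Cyp27a1 therefore did not move together.

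Soat1 and Lipa, which form and split cholesterol esters, had log2 fold changes of opposite sign. Soat1 encodes the enzyme that esterifies cholesterol for storage in most tissues. It had 15.6, 13.4 and 13.5 CPM in Db replicates 1 to 3 and 48.1, 29.4 and 17.0 CPM in Db + Ato10 replicates 1 to 3. All treated libraries were above all saline libraries, with replicate 3 only slightly so. The log2 fold change was 1.16 (SE 0.37, 95% interval 0.28 to 2.05, edgeR adjusted p = 0.239; exact permutation p = 0.1), and the DESeq2 adjusted p was 0.0637. Without Db + Ato10 replicate 3 Soat1 passed the edgeR test (log2 fold change 1.47, adjusted p = 0.0323). The value was 0.72 if treated replicate 1 was left out and 1.25 if Db replicate 1 was.

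Lipa encodes lysosomal acid lipase, which splits cholesterol esters taken up in lipoproteins. Its levels were 421, 314 and 382 CPM in the Db libraries and 152, 229 and 304 CPM in the Db + Ato10 libraries. The treated libraries were all lower, although replicate 3 was close to Db replicate 2. Lipa had a log2 fold change of -0.70 (SE 0.28, 95% interval -1.37 to -0.04, edgeR adjusted p = 0.281; exact permutation p = 0.1), and -0.60 without Db replicate 1. Lipa over Soat1 in FPKM, a ratio chosen after the values had been seen and not tested, was 44.5, 38.5 and 46.6 in the Db libraries and 5.18, 12.7 and 29.4 in the Db + Ato10 libraries. Every treated library had the lower ratio, which follows from the separation of both genes and adds no finding of its own.

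Nceh1 encodes a membrane-bound neutral hydrolase that frees cholesterol from esters stored in macrophages. It had 314, 179.8 and 282 CPM in the Db libraries and 146, 291 and 284 CPM in the Db + Ato10 libraries. Each group held 1 low library and a pair of high ones, and the groups overlapped. Between groups the log2 fold change was -0.10 (SE 0.33, 95% interval -0.90 to 0.69, edgeR adjusted p = 0.878). Its sign changed when Db replicate 1 was left out (0.068) or when Db + Ato10 replicate 1 was (0.16), so the direction for Nceh1 is not settled by these libraries.

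Across libraries some members ran together and others opposite to each other. Pearson r of log2 CPM over the 6 libraries, which share the groups and so say little about each gene alone, was 0.919 for Nr1h2 and Ch25h, 0.904 for Scarb1 and Soat1, and 0.881 for Ch25h and Soat1. Cyp27a1 and Lipa went together (0.857). Against these, r was -0.942 for Cyp27a1 and Soat1, -0.941 for Ch25h and Lipa, and -0.938 for Soat1 and Lipa. Other pairs were hardly related, such as Nr1h3 with Nceh1 (-0.041), with Abcg1 (-0.047) and with Nr1h2 (-0.222). Ch25h and Lipa, which ran opposite to each other, both lie on chromosome 19, with their starts 52326 bases apart on the same strand in the RefSeq annotation of GRCm38.p6.

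Ch25h and Soat1 ran with the macrophage markers over the libraries, and Lipa ran against them. All 13 markers on that list passed the count filter and all 13 were higher in the Db + Ato10 group at an unadjusted p below 0.05, with the groups apart for 7. edgeR called 0 of them and DESeq2 called 12. edgeR also called 12 of the 13 once Db + Ato10 replicate 3 was left out. The count at an unadjusted p below 0.05 was lower in other fits, at 5 with limma-voom, 8 with the replicate block and 10 with limma on log2 FPKM or TPM. It was 9 with Db replicate 1 left out and 10 with Db replicate 3 left out. Their summed level was 145, 273 and 199.9 CPM in the Db libraries and 5733, 1513 and 307 CPM in the Db + Ato10 libraries, and their median log2 fold change was 3.28. Treated replicate 1 was highest, then replicate 2, then replicate 3, the same order as for Soat1 and Abca1 and the reverse of that for Lipa. The most abundant was Lyz2 (20.9, 57.9 and 41.3 CPM against 2629, 537 and 65.3 CPM), and none was at 0 in all libraries. The 3 markers with the smallest p were Cd14 (log2 fold change 5.25), Trem2 (4.44) and C1qc (3.28). Over the 6 libraries the median of these markers had an r of -0.98 with Lipa, 0.95 with Soat1, -0.91 with Cyp27a1, 0.90 with Ch25h, 0.87 with Abca1, 0.80 with Nr1h2, 0.78 with Scarb1, -0.70 with Nr1h3, 0.67 with Abcg1 and -0.60 with Nceh1. How many of all genes had an r as large with this or another list is not given here. None is therefore read as particular to the members. The part of macrophages in the members' differences was not tested.

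Of 10 proximal tubule markers, edgeR and DESeq2 called 0. In edgeR 0 were past an unadjusted p of 0.05, and in DESeq2 2 were (Slc5a2 and Slc5a12, lower), with a median edgeR log2 fold change of -0.78 and the groups apart for 1 (Slc5a2, lower; log2 fold change -1.55). Slc5a12 had a log2 fold change of -1.16 and Lrp2 one of -1.20. Other fits of all libraries gave a lower median, at -1.30 with limma-voom, -1.24 with the replicate block and -1.36 with limma on log2(TPM + 1). Slc5a2 was lower at an unadjusted p below 0.05 with the block and with limma on log2 FPKM or TPM. With Db + Ato10 replicate 3 left out, 5 of the 10 were lower at an unadjusted p below 0.05, edgeR called 1 of them (Slc5a2), and the median was -1.55. Leaving out Db + Ato10 replicate 1 instead gave a median of -0.40 with 0 past that p. Their summed level was 20485, 12225 and 16605 CPM in the Db libraries and 2583, 9550.4 and 18456 CPM in the Db + Ato10 libraries. Treated replicate 1 was thus far below every other library, whereas treated replicate 3 lay within the Db range. The median of these markers had an r of 0.95 with Lipa, 0.88 with Cyp27a1, 0.79 with Nceh1, -0.92 with Soat1 and -0.90 with both Abca1 and Scarb1. It had an r of -0.89 with Nr1h2, -0.88 with Abcg1, -0.84 with Ch25h and 0.40 with Nr1h3. The part of proximal tubule cells in the members' differences was not tested either.

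Markers of other tissues and cell types were looked at in the same libraries. Adrenal cortex expresses Scarb1 and Soat1 strongly, and 6 of its 8 listed markers had a row, of which 3 were tested. Their summed level was 8.34, 10.9 and 8.31 CPM in the Db libraries and 12.2, 7.15 and 10.7 CPM in the Db + Ato10 libraries. Star had the largest part of these sums (log2 fold change 0.05), Hsd3b1 was the most abundant per length (1.44 FPKM, log2 fold change 0.06), and Cyp17a1 had a log2 fold change of -0.52. The defining gene Cyp21a1 had 0 counts in each Db library and 10, 2 and 2 in the Db + Ato10 libraries, and Nr5a1 had at most 1 count in any library. With all libraries 0 of these 3 were past an unadjusted p of 0.05 in edgeR and in DESeq2. Without Db + Ato10 replicate 1, Cyp17a1 was lower at that p, with 10, 26 and 19 counts against 7 and 8. It passed the filter there only through the Db libraries, in which it was higher. With no filter beyond 1 count Cyp21a1 was higher at that p, but it entered only through the Db + Ato10 libraries. The direction was thus fixed by the filter for both genes, and no test is read from either. Of 6 adipocyte markers, 5 had a row and 1 passed the filter, Cidec, with 4, 4 and 6 counts in the Db libraries and 14, 24 and 12 in the Db + Ato10 libraries (log2 fold change 1.58). It passed only through the group in which it was higher, so no test is read from it. Their summed level was 0.318, 0.346 and 0.888 CPM against 1.37, 1.69 and 1.10 CPM. All 8 endothelial markers were tested, and 1 was lower at an unadjusted p below 0.05 (Kdr, log2 fold change -1.05), with sums of 674, 606 and 681 CPM against 710.1, 298 and 674 CPM. Flt1 had a log2 fold change of -0.79 and Tie1 one of -0.29, whereas 2 of the 8 were above 0 (Emcn at 0.15 and Cdh5 at 0.06). The median was -0.20, and 0.12 with Db + Ato10 replicate 2 left out. That count of 1 was 0 without Db replicate 1 or Db replicate 3, and it was 2 without Db + Ato10 replicate 3, where edgeR called Kdr. Plvap was the most abundant of them at 89.7 FPKM. Of 7 urothelial and squamous markers 3 passed the filter, Krt5 (log2 fold change 7.08), Krt15 (6.98) and Trp63 (1.43). Krt5 and Krt15 passed it only through the Db + Ato10 libraries, so their direction was fixed by the filter and no count of these markers is read as a test. Krt5, the most abundant, had 0.397, 0.0866 and 0.404 CPM in the Db libraries and 73.3, 39.7 and 11.7 CPM in the Db + Ato10 libraries. Their sum was 3.42, 1.39 and 2.42 CPM against 133, 78.1 and 21.1 CPM. Over the 6 libraries their median had an r of 0.90 with Ch25h, 0.89 with Soat1 and -0.85 with Lipa, values in part fixed by that filter and given as a description only. The part of these cells in the members' values was not tested. Of the 6 markers of the distal nephron and podocytes, 2 were lower at an unadjusted p below 0.05 (DESeq2 called 2 lower), with sums of 7375, 8525 and 7652 CPM against 5022, 2414 and 6013 CPM. The 2 lower ones were Slc12a1 (log2 fold change -1.48) and Slc12a3 (-1.20), whereas Umod (-0.46) was not past that p. The count of 2 was 1 without Db replicate 2, and edgeR called Slc12a1 without Db + Ato10 replicate 3.

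**Figure D3:**
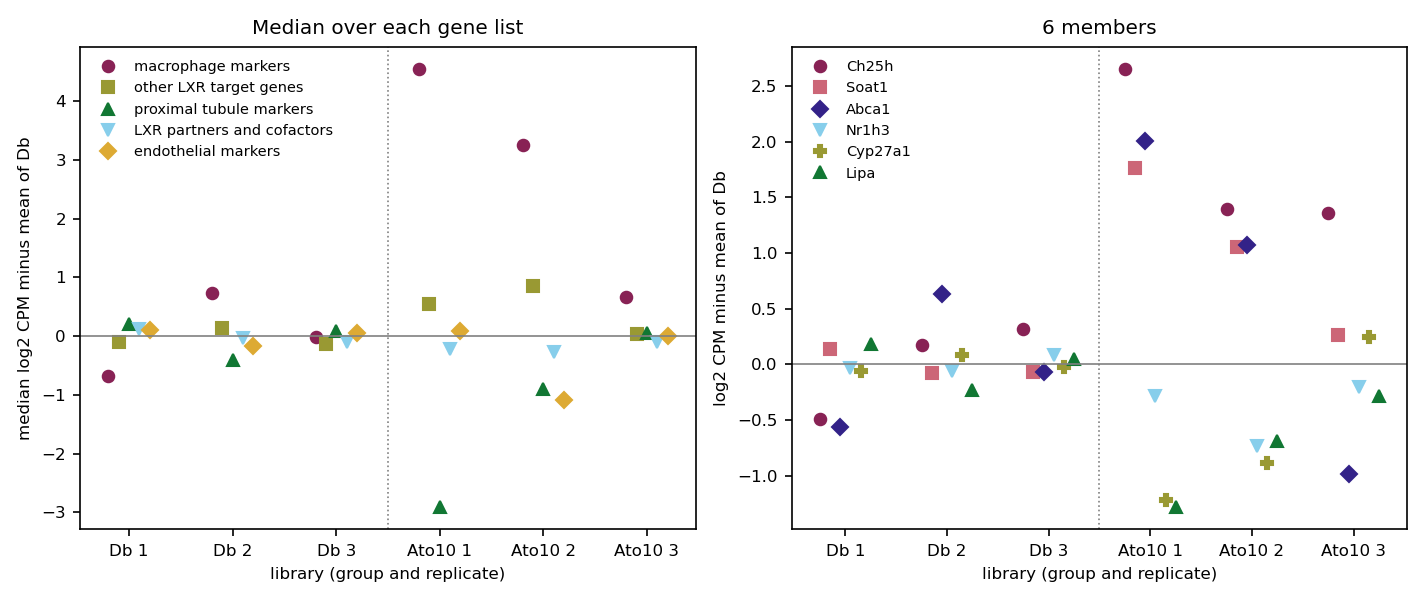
Left, median over each gene list of log2 CPM minus the Db mean in each library. Right, the same measure for 6 members whose values followed or opposed the macrophage markers.

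Other known LXR targets were compared with the members. Of 14 listed genes, 10 were tested, and 4 were higher and 0 lower at an unadjusted p below 0.05. edgeR called 0 and DESeq2 called 4 higher and 0 lower. In both tools the 4 include Apoc2, which passed the count filter only through the treated libraries, so that 3 (Apoe, Pltp and Arl4c) had a direction the filter did not fix. The median log2 fold change was 0.25, beside 0.47 for the members, a difference that was not tested. Their summed level was 986, 1490.2 and 1039 CPM in the Db libraries and 4489, 3139.5 and 1194 CPM in the Db + Ato10 libraries, with Apoe the most abundant per length (1181 FPKM). Only Apoc2 was past that p when Db replicate 1 or Db replicate 3 was left out, and 2 genes were with limma-voom (Apoe and Arl4c). The median was 0.54 with Db replicate 1 left out (members 0.48), 0.27 with Db + Ato10 replicate 1 left out (members 0.15) and -0.05 with Db + Ato10 replicate 2 left out (members 0.63). Which list had the higher median thus depended on the libraries. Without Db + Ato10 replicate 1 or 2 only 9 targets were tested, since Apoc2 did not pass the filter there. The medians of the targets in those fits therefore also changed in their genes. Without Db + Ato10 replicate 3, edgeR called 3 of the 9 that were tested there, namely Apoe, Pltp and Arl4c.

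DESeq2 called Apoe, Pltp, Apoc2 and Arl4c. Apoe, an apolipoprotein that macrophages secrete and that takes up cholesterol from Abca1 and Abcg1, had 237, 719.5 and 297 CPM in the Db libraries and 3612, 2348 and 522 CPM in the Db + Ato10 libraries (log2 fold change 2.38, DESeq2 adjusted p = 0.0155). Treated replicate 3 lay between Db replicates 3 and 2. Pltp, the phospholipid transfer protein, had 3.10, 9.61 and 7.51 CPM against 234.5, 30.9 and 9.52 CPM (log2 fold change 3.78, DESeq2 adjusted p = 0.00506). Apoc2 had 0.159, 0.433 and 0.161 CPM against 23.4, 6.20 and 0.787 CPM, so that its Db values were near the floor of 3 counts, and no test is read from it. Arl4c had 15.9, 22.5 and 11.2 CPM against 72.3, 48.1 and 20.4 CPM (log2 fold change 1.52, DESeq2 adjusted p = 0.0449). edgeR called none of these with all 6 libraries (4 past an unadjusted p of 0.05). Srebf1, the LXR target that drives fatty acid synthesis, had 31.8, 28.8 and 71.2 CPM against 54.9, 41.2 and 31.1 CPM, and its groups overlapped (log2 fold change -0.04).

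The LXR work with retinoid X receptors as partners and with cofactors. All 9 such genes listed were tested; 1 had a log2 fold change above 0 and 8 below, with a median of -0.17. At an unadjusted p below 0.05, 0 were higher and 1 lower (Ncoa1), and both tools called 0. In DESeq2 2 were lower at that p (Ncoa1 and Rxrg). Ncoa1, a coactivator of nuclear receptors, had 53.7, 50.0 and 47.1 CPM in the Db libraries and 42.3, 33.7 and 35.3 CPM in the Db + Ato10 libraries (log2 fold change -0.43, edgeR adjusted p = 0.239). Rxra, the most abundant partner (29.4 FPKM), had 132, 144 and 147 CPM against 87.9, 149.6 and 163 CPM, with no common direction (log2 fold change -0.08). Rxrg, with 8, 36 and 19 counts against 4, 4 and 13, had a log2 fold change of -1.77, and Ncoa2 one of -0.32. The count of 1 gene lower was 0 when replicate 2 of either group was left out. The gene past that p was Rxrg with Db replicate 1 left out and Ncoa2 with Db + Ato10 replicate 3 left out.

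Other genes of the members' pathway gave few differences. Of 13 further oxysterol genes, 12 had a row and 9 were tested; 0 were past an unadjusted p of 0.05 in either direction, both tools called 0, and the median log2 fold change was -0.21. The most abundant was Hsd11b1 (40.9 FPKM, log2 fold change -0.04). Hsd3b7 had a log2 fold change of 0.48, Osbp one of -0.36 and Insig2 one of -0.21. With limma-voom 1 gene was higher (Hsd3b7), as was Gpr183 with no filter beyond 1 count. With Db replicate 2 left out 1 gene was higher, with Db + Ato10 replicate 1 left out 1 was lower, and with Db + Ato10 replicate 3 left out 1 was higher and 1 lower at that p. Of 18 genes for transport of cholesterol inside the cell, 17 were tested, 2 were higher and 0 lower at an unadjusted p below 0.05, both tools called 0, and the median was -0.13. That count of 2 was 3 with DESeq2 and 1 with limma-voom. It was 0 without Db replicate 1, 0 without Db replicate 3, 1 without Db replicate 2, 1 without Db + Ato10 replicate 1 and, at the other end, 5 without Db + Ato10 replicate 3, where edgeR called Scarb2 and Npc2. In addition 1 gene was lower with Db replicate 3 left out and 1 with Db + Ato10 replicate 1 left out. Scarb2, a lysosomal membrane protein of the same family as Scarb1, had 43.5, 66.8 and 52.2 CPM in the Db libraries and 147, 102 and 65.9 CPM in the Db + Ato10 libraries (log2 fold change 0.97, edgeR adjusted p = 0.239). Npc2, which receives the cholesterol that Lipa releases in the lysosome, had 111, 129 and 122 CPM against 226, 199.9 and 123 CPM (log2 fold change 0.61). Lamp1 was the most abundant of the list (744 FPKM, log2 fold change -0.01), and Cav1 had a log2 fold change of -0.51.

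The same members were described at the level of transcripts. The transcript table lists 27 transcripts of the 10 genes, of which 23 passed the filter among 30175 tested, and 8 members have more than 1. edgeR called 0 of them, DESeq2 called 0 (889 of all transcripts), and 2 were past an unadjusted p of 0.05 (8.19% of all transcripts), 1 each of Ch25h and Soat1, both higher. The most abundant transcript held most of the gene's expected counts for Soat1 (94.6% on average), Lipa (92.5%) and Cyp27a1 (86.5%), but less for Nr1h3 (53.8%) and Nr1h2 (40.3%). For Abca1 it held 78.0%, 58.1% and 58.8% in the Db libraries and 85.9%, 88.0% and 53.3% in the Db + Ato10 libraries. Its share was thus highest in the treated libraries with most Abca1. For Nceh1 the share was 44.7%, 77.3% and 58.5% against 85.7%, 71.6% and 64.4%, with overlap between the groups. Ch25h and Abcg1 have 1 listed transcript each, so their values do not depend on how reads were split.

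The genes whose pattern was most like that of Ch25h, the member with the largest difference, were named by Pearson r of log2 CPM over the 6 libraries among 13678 other genes. They were Ppp1r35 (r 0.999, log2 fold change 0.35), Colgalt1 (0.994, 0.60), Ubald2 (0.992, 0.92), Eya2 (0.991, 1.44) and Abhd12 (0.991, 0.30). All 5 had smaller log2 fold changes than Ch25h.

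Because the LXR act by binding DNA near their targets, the promoters of the members were searched for their recognition letters. Promoters from 250 bases before to 50 after the start, taken from RefSeq (GRCm38.p6), covered 8 of the 10 members. The set of promoters used had no entry for Abcg1 and Scarb1, although RefSeq transcripts of both are known, so theirs were not searched. LXR with its partner binds a pair of hexamers in the same direction with a spacer of 4 bases. The hexamer was searched on both strands as NGGTNA, and the pair, NGGTNA and again NGGTNA after 4 bases, is held by 236 of 32851 promoters of this length (0.718%). Among the members only Abca1 holds it, 67 to 52 bases before the start. Among the other LXR targets, 12 of 14 had an entry and only Srebf1 holds it, in 1 of the 17 promoters, 182 to 167 bases before the start. The stricter pair, made of AGGTCA in place of NGGTNA, is in 5 promoters (0.0152%) and in 0 members. The hexamer alone is in 26719 promoters (81.3%) and in all 8 members with an entry, so its presence sets no member apart. A match describes letters only and is not evidence of binding in these kidneys. The promoters of Abca1 (chr4:53159846-53160145, minus strand) and Srebf1 (chr11:60210422-60210721, minus strand) are shown because they hold the pair, and capitals mark it. Both are read on the strand of the gene, and the pair lies on the opposite strand, where it reads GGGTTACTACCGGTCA for Abca1 and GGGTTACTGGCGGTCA for Srebf1. The promoter of Ch25h (chr19:34475099-34475398, minus strand) is shown because this member differed most, and capitals there mark its single hexamers GGGTTA and GGGTGA on the strand of the gene, 119 to 114 and 64 to 59 bases before the start.
Abca1: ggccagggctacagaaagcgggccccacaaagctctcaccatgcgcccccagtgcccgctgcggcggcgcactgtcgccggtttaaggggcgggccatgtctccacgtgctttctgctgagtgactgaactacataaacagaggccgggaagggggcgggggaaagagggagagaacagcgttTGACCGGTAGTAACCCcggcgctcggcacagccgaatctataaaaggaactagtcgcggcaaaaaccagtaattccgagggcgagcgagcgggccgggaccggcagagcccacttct
Srebf1: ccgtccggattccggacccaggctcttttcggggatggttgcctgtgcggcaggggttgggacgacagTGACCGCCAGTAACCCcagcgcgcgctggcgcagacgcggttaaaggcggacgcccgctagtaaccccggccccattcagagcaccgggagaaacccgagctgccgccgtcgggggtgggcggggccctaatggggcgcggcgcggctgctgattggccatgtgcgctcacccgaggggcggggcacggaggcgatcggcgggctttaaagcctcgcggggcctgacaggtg
Ch25h: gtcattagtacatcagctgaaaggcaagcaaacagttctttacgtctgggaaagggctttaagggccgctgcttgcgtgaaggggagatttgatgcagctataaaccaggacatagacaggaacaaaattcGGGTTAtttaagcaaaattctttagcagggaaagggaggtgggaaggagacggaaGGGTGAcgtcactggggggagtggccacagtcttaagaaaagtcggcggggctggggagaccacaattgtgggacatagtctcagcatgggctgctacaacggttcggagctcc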

How the data were processed

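Kidney RNA from 3 Db and 3 Db + Ato10 libraries was measured by RNA sequencing. The authors deposited expected counts, estimated reads that are not all whole numbers, for each gene and each transcript. The authors also deposited FPKM, scaled to transcript length and number of fragments, and TPM, scaled to length and to an equal total per library. The submitters' processing notes name HISAT, Bowtie2 2.2.5 and the build mm9, and the counting tool is not given in the sources used here. How reads of overlapping or antisense genes were assigned is therefore unsure.

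Expected counts were rounded (91.3% of gene values and 100% of the members' values were exactly whole, with a tolerance of 0), and the test took in each gene that reached 10 counts in 3 or more libraries. The test was edgeR 4.0.16 in R 4.3.3 (TMM scaling, quasi-likelihood F test), fitted on all genes with Benjamini-Hochberg adjustment over all of them. A call needed a fold change over 1.5 and an adjusted p below 0.05, the thresholds the study names. The SE of a log2 fold change was its size divided by the square root of F. The log2 CPM for correlations and permutations used a prior count of 2, and exact permutation tests were two-sided over the 6 libraries. Depth ran from 11381678 to 14667909 counts per library, which bears most on Ch25h with its low counts.

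Alternatives were DESeq2 1.42.0, limma 3.58.1 (voom, and log2 FPKM or TPM with pseudocounts of 1 or 0.1), upper-quartile scaling, other count filters, bias-adjusted deviances, a replicate block and leaving out each library. DESeq2 with each library left out was chosen after seeing the data. Members and lists (other LXR targets, LXR partners, other oxysterol genes, intracellular transport, and markers of macrophages, proximal tubule, adrenal cortex, adipocytes, endothelium, urothelium and distal nephron with podocytes) were chosen with earlier results of these data known. Named were all members, the 3 genes of each list with the smallest unadjusted p and its most abundant gene, and the 5 genes most like the member with the smallest p. Any other gene named was chosen after its values were seen. Cyp7a1, Cyp11b1, Cyp11b2 and Lep had no row and were not analysed here. Per-transcript FPKM and TPM of each library (12 columns) and 12 columns of group averages were not tested. The fitting code was checked on simulated data. Promoters were searched and figures drawn in Python 3.11.15 with matplotlib 3.10.9.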

Additional observations from a re-analysis of the deposited data

How the results depend on the processing

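The count of 0 members called by edgeR (3 at an unadjusted p below 0.05) was also 0 with limma-voom, upper-quartile scaling, other filters, bias-adjusted deviances and limma on log2 FPKM or TPM. DESeq2 called 1 member and 884 genes. Limma on log2(FPKM + 0.1) called 1 gene of all, and none of the 10 members. Fold change over 1.5 with an unadjusted p below 0.05 took in 3 members and 1839 genes, by its construction. Limma on log2(TPM + 1) gave 2 members lower at an unadjusted p below 0.05, as were 9.25% of all genes, whose median was -0.08. Labels give replicate numbers only, and not every library was most like the one with its own number (r of libraries with the same number -0.151, 0.0613 and 0.208). With the replicate block, 0 members (smallest adjusted p 0.364) and 0 of all genes were called. At an unadjusted p below 0.05, 3 members were higher (8.2% of all genes) and 0 lower (5.37%), with 1856 of all genes past that p. Of the 13 macrophage markers, 8 were higher at that p with the block.

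Leaving out each library, edgeR called 0 to 2 members and 0 to 1106 genes. At an unadjusted p below 0.05, 1 to 4 members were higher (5.16% to 16.8% of all genes) and 0 to 3 lower (2.52% to 13.1%). DESeq2, an alternative chosen after seeing the data, called 0 to 5 members in this way, and 195 to 2614 of all genes. Both upper ends came without Db + Ato10 replicate 3. In edgeR the log2 fold change of Abcg1 ran from -0.42 (without Db + Ato10 replicate 1, where DESeq2 gave -0.42 too) to 1.14, and that of Nceh1 from -0.31 to 0.16 (Db + Ato10 replicate 1 left out), with 0.068 when Db replicate 1 was left out. The other 8 members kept their direction in all 17 alternative fits. With all libraries, the log2 fold change of Abcg1 was 0.72 in edgeR. It was 0.32 with limma-voom, 0.28 with the replicate block and 0.21 with limma on log2(TPM + 1). That of Abca1 was 1.07 in edgeR, and 0.68, 0.68 and 0.60 in the same 3 alternatives. Transcripts were fitted with edgeR, with DESeq2, with the replicate block and with each library left out, and 0 of the members' transcripts were called in each (2 at an unadjusted p below 0.05 in edgeR with all libraries). For each of these changes the cause was not tested. At this depth Ch25h rested on 11 to 19 counts in the Db libraries.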
